A study of Homo sapiens with 9 samples.

Results

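The genes described are 9 targets of NRF2, the transcription factor of the antioxidant response, out of 60683 gene IDs counted in the series. They are HMOX1, NQO1, GCLC, GCLM, TXNRD1, SRXN1, TXN, KEAP1 and OSGIN1, chosen by symbol and matched to Ensembl IDs, and their measured levels played no part in the matching. The RNA came from HEK293T, an established line of human embryonic kidney cells that carries the SV40 large T antigen, grown in DMEM with 10% fetal bovine serum. Parental cells held no reporter, and clones 15 and 37 each grew from 1 sorted cell after the piggyBac transposon had inserted the construct ATG-(CAG)60-Myc-NLuc together with a companion, ATG-(CAG)0-Myc-FLuc. Both clones thus carried a reporter with 60 CAG units and one with 0. The labels describe integrand expression as high in clone 37 and low in clone 15. Each of the 3 groups had 3 replicate libraries of ribosome-depleted RNA, and each expression level was represented by a single clone. The labels do not say whether replicates came from separate cultures, so p values measure the spread between these libraries, which may be technical.

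NRF2, encoded by NFE2L2, is normally held in the cytoplasm by KEAP1, which hands it to a CUL3 ubiquitin ligase for destruction. Oxidants and electrophiles modify cysteines of KEAP1, NRF2 escapes, pairs with a small MAF protein in the nucleus and binds antioxidant response elements near its targets. Those targets make glutathione, recharge thioredoxin, reduce quinones and break down heme, and BACH1 competes for many of the same elements, that of HMOX1 above all. Because much of NRF2 control acts on the protein, the mRNA levels given here do not measure NRF2 activity.

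Gene counts per library ran from 10334090 to 38093340, with all 3 clone 15 libraries deeper than the other 6. Clone 15 was read at 100 bp and the other groups at 75 bp, so what read length contributes to clone 15 values cannot be told apart from the clone itself. Clone 15 libraries also had 4.59% to 5.98% of read pairs mapped to several places and 33.7% to 34.6% outside annotated features, against 10.4% to 14.0% and 19.2% to 29.9% in the other 6, and the part of these shares in the results was not tested. All 9 HEK293T markers (among them VIM, NEFL, KRT8 and PAX2) were detected in every group, but their summed level differed, at 1337 to 1740 CPM (counts scaled to library size) per library in parental cells, 4049 to 4284 in clone 15 and 851 to 919 in clone 37. NEFM, a neurofilament gene among them, had means of 569 CPM in parental cells, 2717 in clone 15 and 137 in clone 37. No mature kidney marker exceeded 0.366 CPM in any library. Of 6 blood, vessel and fibroblast markers, CDH5 had no count in parental cells and clone 37 and PTPRC had none in clone 15, and their summed level per library, nearly all of it COL1A1, was 35.4 to 35.8 CPM in parental cells, 49.0 to 110 in clone 15 and 18.9 to 21.6 in clone 37. The part of these markers in the results was not tested. Among parental libraries, replicate 2 stood apart. Its counts differed from replicates 1 and 3 by a chi-square per degree of freedom of 11.5 and 11.6, against 1.99 between those replicates. Clone 15 libraries also differed among themselves, by 4.53 to 9.97, and clone 37 libraries by 1.77 to 1.93. Parental replicate 2 had the lowest share outside features, 19.2%, and gave the highest parental level for 7 of the 9 targets, so values without it follow where they matter.

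The promoter sequences available for 8 of the targets are shown where they hold the core of an antioxidant response element, because that element is what the targets are known to share. The core was searched on both strands as TGACNNNGC in RefSeq windows of GRCh38.p14 that reach from 250 bases before a gene's start to 50 bases after it. Of these 8 genes, 3 had a match (37.5%), against 4384 of 27305 genes with a window (16.1%) and 13 of 48 genes in wider lists of the pathway (27.1%). The promoter of HMOX1 was not analysed here. In the stretches below, written 5′ to 3′ on the gene's strand, capitals mark the matched letters or their reverse complement.
GCLM, chr1:93909446-93909474, minus strand: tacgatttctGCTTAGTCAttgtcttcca
KEAP1, chr19:10502784-10502812, minus strand: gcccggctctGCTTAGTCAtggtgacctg
TXNRD1, chr12:104286920-104286948, plus strand: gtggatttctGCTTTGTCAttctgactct
TXNRD1, chr12:104215670-104215698, plus strand: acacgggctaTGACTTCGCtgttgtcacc
KEAP1, chr19:10502807-10502835, minus strand: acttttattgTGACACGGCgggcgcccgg

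The GCLM and first KEAP1 stretches held the same capitals, GCTTAGTCA, which read TGACTAAGC on the opposite strand. A further match at the first start of TXNRD1 is not printed. The first TXNRD1 stretch lay before the second of the gene's listed starts, and the other TXNRD1 stretch lay before the first start. Both KEAP1 stretches lay before the second listed start of KEAP1, and the window of its first start held 0 matches. The matches in both KEAP1 stretches and in the first TXNRD1 stretch fell within untranslated regions of GENCODE 29 transcripts of these genes. No match overlapped TGANTCA, the AP-1 motif. A match describes letters only, and binding at these places was not measured.

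Levels are given as CPM, the strand-specific counts scaled to library size. Fold changes come from edgeR's quasi-likelihood test, fitted for each comparison on its 6 libraries, with Benjamini-Hochberg adjusted p values over all tested genes. The threshold for a call was an adjusted p of 0.05, and SE stands for the standard error on the log2 scale. All 9 targets passed the filter on low counts in all 3 comparisons. Groups did not overlap in CPM for 60.0% of all genes tested in clone 37 against parental, 58.3% in clone 15 and 63.5% between the clones. The targets, with 6, 5 and 6 of 9 not overlapping, lay near these shares. Gene positions, from first to last base, follow GENCODE 29 on GRCh38.

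HMOX1 (ENSG00000100292, chromosome 22, 35380361 to 35394214) encodes heme oxygenase 1, which opens heme into biliverdin, carbon monoxide and iron. Its level was 12.1, 16.0 and 12.6 CPM in parental replicates 1 to 3, 23.6, 23.7 and 27.0 CPM in clone 15, and 19.5, 20.6 and 20.4 CPM in clone 37. The 3 groups did not overlap: every clone 37 library lay above every parental library and below every clone 15 library. HMOX1 was higher in clone 37 than in parental cells by a log2 fold change of 0.57 (adjusted p 0.000292, SE 0.11). In clone 15 the log2 fold change was 0.86 (adjusted p 1.78e-06, SE 0.12), the largest called change of any target in that clone. Leaving out parental replicate 2 gave log2 fold changes of 0.67 in clone 37 and 0.99 in clone 15. Directly between the clones, HMOX1 was lower in clone 37 by a log2 difference of -0.29 (adjusted p 0.00751, SE 0.09). That difference was no longer called after removal of trends in GC content and transcript length, at -0.11 (adjusted p 0.292), or without clone 37 replicate 1, at -0.26 (adjusted p 0.0546).

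NQO1 (ENSG00000181019, chromosome 16, 69706996 to 69726951) encodes a quinone reductase and is widely used as a readout of NRF2. It was a low gene here, with 3.60, 5.70 and 2.88 CPM in parental cells, 4.49, 3.20 and 5.16 CPM in clone 15, and 2.93, 2.76 and 4.39 CPM in clone 37. The ranges of the 3 groups overlapped throughout. The log2 fold change was -0.26 in clone 37 (adjusted p 0.414, SE 0.26) and 0.06 in clone 15 (adjusted p 0.847, SE 0.24), neither called. Over the 16 alternative settings it ranged from -0.54 to 0.05 in clone 37 and from -0.16 to 0.39 in clone 15. Its direction thus depended on the setting in both clones, and no setting gave a call. Between the clones the log2 difference was -0.33 (adjusted p 0.196, SE 0.21), and without clone 15 replicate 2 it was -0.51 and called (adjusted p 0.026). With such errors, moderate changes of NQO1 in either direction were not detectable.

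GCLC and GCLM encode the catalytic and the modifier subunit of glutamate-cysteine ligase, the rate-limiting enzyme of glutathione synthesis. GCLC (ENSG00000001084, chromosome 6, 53497341 to 53616970) stood at 44.9, 49.2 and 51.9 CPM in parental cells, 57.1, 53.4 and 57.6 CPM in clone 15, and 67.9, 62.2 and 70.2 CPM in clone 37. The order was parental, clone 15, clone 37, with no overlap between groups. GCLC rose in clone 37 with a log2 fold change of 0.46 (adjusted p 4.55e-05, SE 0.07). In clone 15 its log2 fold change was 0.20 (adjusted p 0.0583, SE 0.09), just short of a call, and it was called at 0.25 without clone 15 replicate 2 (adjusted p 0.0218). Between the clones GCLC was higher in clone 37 by 0.26 on the log2 scale (adjusted p 0.00139, SE 0.07).

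GCLM (ENSG00000023909, chromosome 1, 93885205 to 93909456) took another order. Its level was 48.3, 60.8 and 51.3 CPM in parental cells, 36.9, 41.4 and 39.0 CPM in clone 15, and 53.3, 45.3 and 54.1 CPM in clone 37. Clone 15 lay below both other groups without overlap, while clone 37 and parental cells overlapped. GCLM was the only target called lower than parental, in clone 15, where its log2 fold change was -0.46 (adjusted p 0.000247, SE 0.09). In clone 37 its log2 fold change was -0.07 (adjusted p 0.516, SE 0.08). Between the clones GCLM was higher in clone 37 by 0.39 (adjusted p 6.7e-05, SE 0.08). That difference ranged from 0.19 to 0.47 over the 16 alternative settings and was called in all of them. The 100 tested genes around GCLM on its chromosome had a median log2 fold change of -0.45 in clone 15, and GCLM differed from that median by -0.0023. After removal of GC and length trends the clone 15 value was -0.15 and was not called (adjusted p 0.207). The subunits of this enzyme therefore had different orders of level: GCLC was lowest in parental cells and GCLM was lowest in clone 15.

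TXN encodes thioredoxin, which reduces protein disulfides, and TXNRD1 encodes the selenoenzyme that recharges it with electrons from NADPH. TXN (ENSG00000136810, chromosome 9, 110243811 to 110256640) stood at 176, 215 and 172 CPM in parental cells, 198, 198 and 196 CPM in clone 15, and 228, 233 and 248 CPM in clone 37. All clone 37 libraries lay above the other 6, and the clone 15 values fell within the parental range. TXN rose in clone 37 with a log2 fold change of 0.34 (adjusted p 0.000544, SE 0.07). In clone 15 its log2 fold change was 0.07 (adjusted p 0.511, SE 0.09). Without parental replicate 2, the parental library with 215 CPM, the clone 15 value was 0.17 and was called (adjusted p 0.0254). TXN was higher in clone 37 than in clone 15 by 0.26 on the log2 scale (adjusted p 0.000111, SE 0.05).

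TXNRD1 (ENSG00000198431, chromosome 12, 104215779 to 104350305) measured 147, 179 and 147 CPM in parental cells, 196, 188 and 219 CPM in clone 15, and 193, 187 and 206 CPM in clone 37. Every library of either clone exceeded every parental library, and the clones overlapped each other. TXNRD1 rose in clone 37 by 0.32 (adjusted p 0.000741, SE 0.07) and in clone 15 by 0.35 (adjusted p 0.00184, SE 0.09) on the log2 scale. Between the clones the log2 difference was -0.03, with a 95% interval from -0.15 to 0.08 (adjusted p 0.643). In the direct comparison of the clones, then, TXN was called and TXNRD1 was not.

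SRXN1 (ENSG00000271303, chromosome 20, 646615 to 653370) encodes sulfiredoxin, which repairs overoxidised peroxiredoxins. It was counted 3, 9 and 8 times in parental libraries, 19, 37 and 27 times in clone 15, and 12, 13 and 13 times in clone 37. These counts correspond to 0.277, 0.684 and 0.607 CPM in parental cells, 0.499, 1.48 and 1.45 CPM in clone 15, and 1.10, 1.24 and 1.06 CPM in clone 37. Clone 37 lay above parental without overlap, and clone 15 replicate 1 fell within the parental range. In clone 37 against parental, SRXN1 passed the filter on low counts through clone 37 alone and so had to be high there. Its fitted change in clone 37 was the largest of the targets, a log2 fold change of 1.06 (adjusted p 0.0321, SE 0.40). That call was lost in 8 of 16 alternative settings, among them without parental replicate 1 (0.80, adjusted p 0.13), without parental replicate 3 (1.14, adjusted p 0.0545) and without any single clone 37 library (adjusted p 0.0706 to 0.0971). In clone 15 the log2 fold change was 1.01 (adjusted p 0.0773, SE 0.47), and without clone 15 replicate 1 it was 1.46 and called (adjusted p 0.01). Of the 75-base words of the SRXN1 transcript, 84.6% also occur in another gene of the same strand and place, so its counts are uncertain.

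KEAP1 (ENSG00000079999, chromosome 19, 10486120 to 10503741), the sensor that holds NRF2 back, is itself counted among NRF2 targets and closes a feedback loop. Its level was 44.9, 53.3 and 42.3 CPM in parental cells, 60.4, 69.0 and 58.8 CPM in clone 15, and 57.3, 56.3 and 54.8 CPM in clone 37. The 3 groups did not overlap, and clone 15 was the highest, as it was for HMOX1. KEAP1 rose by 0.26 in clone 37 (adjusted p 0.00746, SE 0.08) and by 0.42 in clone 15 (adjusted p 0.000694, SE 0.10) on the log2 scale. The clone 37 call was lost with unstranded counts (0.22, adjusted p 0.0522) and without parental replicate 3 (0.16, adjusted p 0.123). Between the clones the log2 difference was -0.16 (adjusted p 0.0529, SE 0.07). It was called without clone 15 replicate 1 (-0.20, adjusted p 0.0296) and without clone 15 replicate 3 (-0.21, adjusted p 0.0176). It was also called with a filter of 1 CPM or none, with thinning, with protein-coding genes alone and with a replicate block (-0.17 to -0.15, adjusted p 0.0356 to 0.0484).

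OSGIN1 (ENSG00000140961, chromosome 16, 83948282 to 83966332) encodes an inhibitor of growth that is induced by oxidative stress. It was counted 10, 13 and 24 times in parental libraries, 39, 31 and 15 times in clone 15, and 19, 16 and 30 times in clone 37. The levels were 0.923, 0.988 and 1.82 CPM in parental cells, 1.03, 1.24 and 0.806 CPM in clone 15, and 1.74, 1.52 and 2.44 CPM in clone 37. Clone 37 lay above clone 15 without overlap, and the parental range reached into both. OSGIN1 was higher in clone 37 than in clone 15 by a log2 difference of 0.89 (adjusted p 0.0133, SE 0.30). That call was lost without clone 37 replicate 3 (0.65, adjusted p 0.152). Against parental cells the log2 fold change was 0.60 in clone 37 (adjusted p 0.135, SE 0.33) and -0.28 in clone 15 (adjusted p 0.523, SE 0.35). Without parental replicate 3, which had the highest parental level, the clone 37 value was 0.97 and was called (adjusted p 0.0334).

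**Figure D1:**
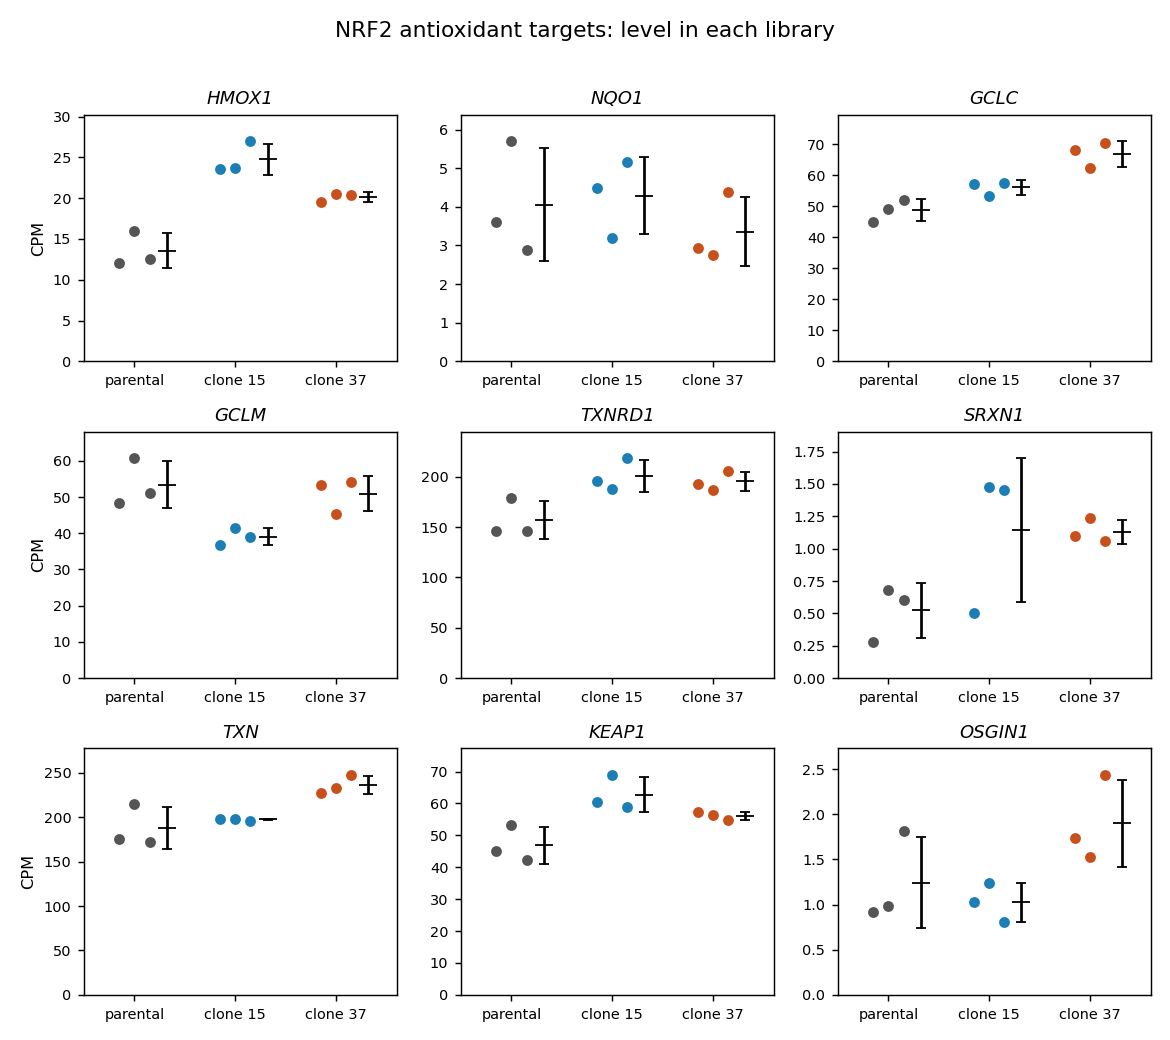
Level of each NRF2 target in CPM (vertical axes, each from 0) in the 3 libraries of parental cells, clone 15 and clone 37; points are libraries, and the bar beside them gives the mean ± SD (n = 3). HMOX1, GCLC and KEAP1 show 3 groups that do not overlap, NQO1 shows groups that overlap throughout, and GCLM is lowest in clone 15. The groups of a comparison did not overlap for 58.3% to 63.5% of all genes tested.

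Levels of different genes were compared only per kilobase of the longest coding transcript. In parental cells TXN was the highest target, at 216 CPM per kb. TXNRD1 followed at 36.8, KEAP1 at 15.9, GCLC at 12.8, GCLM at 11.0 and HMOX1 at 7.45 CPM per kb. NQO1 stood at 1.39, OSGIN1 at 0.520 and SRXN1 at 0.194 CPM per kb. The place of SRXN1 at the bottom is uncertain, because 84.6% of its 75-base words are shared with an overlapping gene, and reads that fit both are left out of its count. With merged exons as the length, the first 3 and the last 3 kept their places, while GCLC, at 5.63 CPM per kb, came after GCLM and HMOX1.

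The comparison of clone 37 with parental cells asks what differs in the clone with high integrand expression. Of the 9 targets, 6 were called and all 6 were higher: HMOX1, GCLC, TXNRD1, SRXN1, TXN and KEAP1. SRXN1 passed the filter on low counts through clone 37 alone, so the direction of its call was fixed by the filter. Among all 16501 genes tested, the share called was 54.0% (26.7% upward, 27.3% downward). The share of targets called was thus near that of all genes, while the calls among targets were all in one direction. The targets' median log2 fold change was 0.34, against 0.02 over all tested genes. Their median absolute value of 0.34 was close to the 0.32 of all genes, so the sizes were ordinary for this comparison. Without parental replicate 2 the number of targets called was again 6.

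For clone 15 against parental cells, 3 targets were called higher (HMOX1, TXNRD1 and KEAP1) and 1 lower (GCLM), beside 51.4% called among all 17703 genes tested (25.1% upward, 26.2% downward). The targets' median log2 fold change was 0.20, against 0.02 over all tested genes, and their median absolute value was 0.35 against 0.36. Both comparisons use the same 3 parental libraries, so a target called in both rests in part on the same values.

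The direct comparison of the clones tests whether they differ from each other. Of the targets, 4 were higher in clone 37 (GCLC, GCLM, TXN and OSGIN1) and HMOX1 was lower, beside 57.7% called among all 17712 genes tested (28.7% upward). The targets' median log2 difference was 0.07, against 0.00 over all tested genes. The share of targets called, 5 of 9, was thus near that of all genes, and each level of integrand expression was represented by a single clone. The HMOX1 call was lost with GC and length trends removed and without clone 37 replicate 1. That of OSGIN1 was lost without clone 37 replicate 3.

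**Figure D2:**
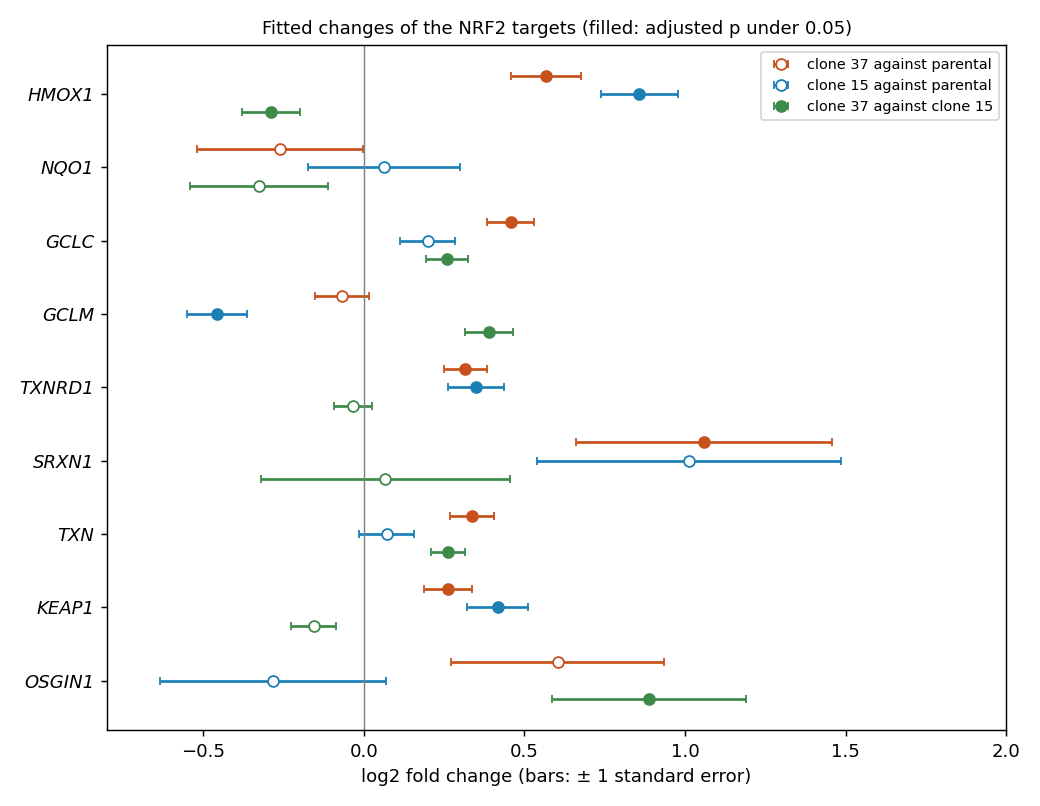
Fitted log2 fold change (horizontal axis) of each NRF2 target in the 3 comparisons; bars are ± 1 SE and filled points have an adjusted p under 0.05. HMOX1 is called in all 3 comparisons, NQO1 in none, and GCLM is called lower in clone 15 than in parental cells and higher in clone 37 than in clone 15.

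Each target was also set beside its chromosome neighbours, the nearest 100 genes that were tested. HMOX1 lay apart from its neighbours, whose median log2 fold change was -0.28 in clone 37 and -0.08 in clone 15. It exceeded that median by 0.85 in clone 37 and by 0.94 in clone 15, and 95% of its neighbours lay below it in either clone. SRXN1 exceeded its neighbours' median by 0.81 in clone 37, where 100% of neighbours lay below it, and by 0.62 in clone 15. The clone 37 value of SRXN1 was bound by the filter described above. GCLC exceeded its neighbours by 0.33 in clone 37 and by 0.07 in clone 15, and TXN by 0.27 and 0.05. TXNRD1 exceeded its neighbours by 0.13 in clone 37, where their median was 0.19, and by 0.28 in clone 15. Between the clones, HMOX1 differed from its neighbours' median of -0.19 by -0.10, and GCLM exceeded its neighbours' median of 0.19 by 0.20.

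KEAP1 in clone 37 differed from its neighbours' median of 0.31 by -0.051, so its direction turned relative to them, whereas in clone 15 it exceeded them by 0.25. OSGIN1 in clone 37 lay beside neighbours with a median of 0.67 and differed from it by -0.06. Between the clones, the neighbours of OSGIN1 had a median log2 difference of 0.77, and OSGIN1 exceeded it by 0.11. NQO1 in clone 37 differed by -0.45 from its neighbours' median of 0.19. How far the surroundings account for the changes of a target was not tested.

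**Figure D3:**
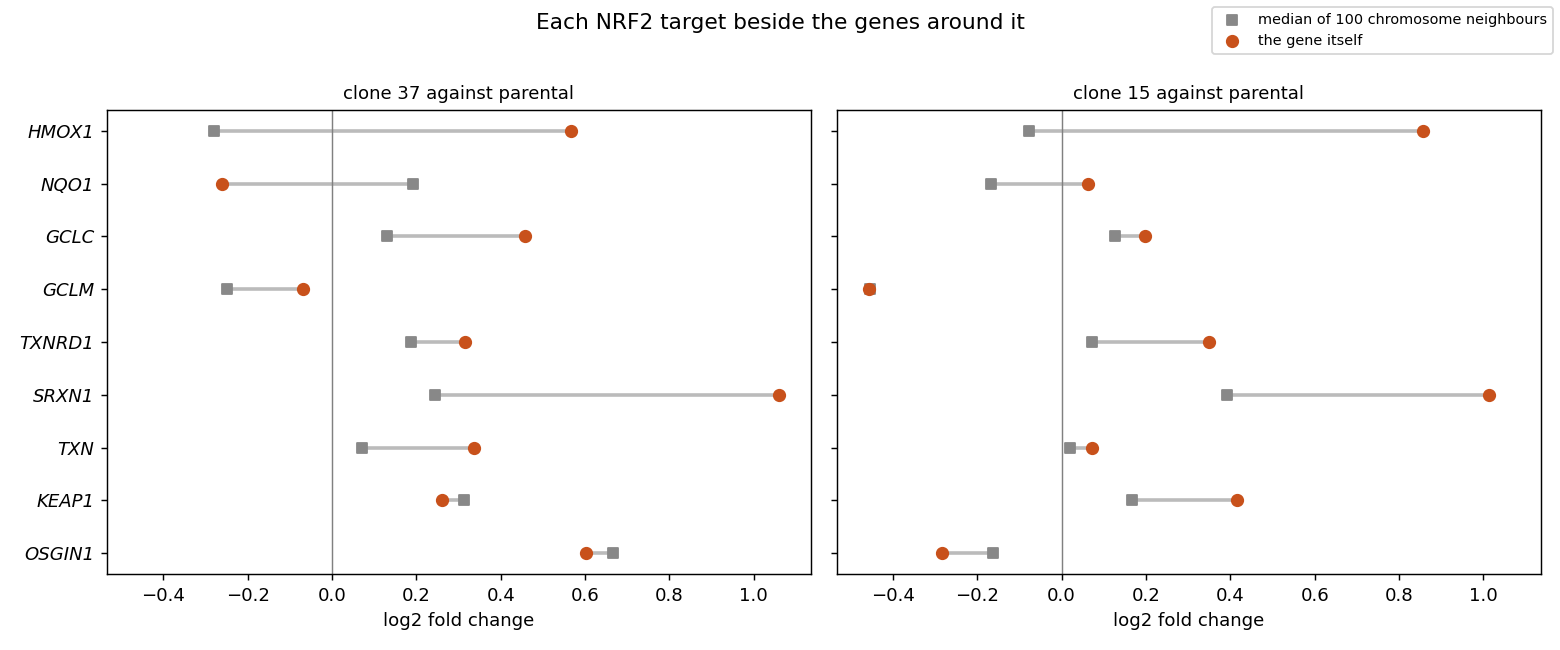
Log2 fold change (horizontal axis) of each NRF2 target (circle) and the median of its 100 chromosome neighbours (square), for clone 37 and clone 15 against parental. The circle lies far to the right of the square for HMOX1 in both clones, and on the square for GCLM in clone 15.

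The regulators of NRF2 form a list of 10 genes, all of which were tested. Against parental, calls were made for 5 of them in clone 37 (2 upward, 3 downward) and for 6 in clone 15 (2 upward, 4 downward). These shares were near the 54.0% and 51.4% called among all genes tested. NFE2L2, which encodes NRF2 itself, was 68.1, 77.7 and 64.8 CPM in parental cells, 45.9, 38.8 and 48.0 CPM in clone 15, and 44.2, 41.7 and 44.0 CPM in clone 37. Every clone library lay below every parental library, and the clones overlapped. NFE2L2 was lower by log2 fold changes of -0.70 in clone 37 (adjusted p 2.9e-07, SE 0.07) and -0.67 in clone 15 (adjusted p 1.7e-06, SE 0.09). So the mRNA of the factor was lower in both clones while HMOX1, TXNRD1 and KEAP1 were higher.

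SQSTM1 encodes p62, which binds KEAP1 and draws it into autophagy, and is itself an NRF2 target. Its level was 98.4, 105 and 96.1 CPM in parental cells, 150, 161 and 152 CPM in clone 15, and 155, 154 and 165 CPM in clone 37. The clones overlapped each other and lay wholly above parental cells. SQSTM1 rose by 0.66 in clone 37 (adjusted p 3.16e-08, SE 0.06) and by 0.62 in clone 15 (adjusted p 3.12e-07, SE 0.08) on the log2 scale. MAFG, a small MAF partner of NRF2, had means of 32.2 CPM in parental cells, 46.8 in clone 15 and 49.3 in clone 37. It rose by 0.62 in clone 37 (adjusted p 2.6e-06, SE 0.08) and by 0.54 in clone 15 (adjusted p 1.77e-05, SE 0.09).

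MAFF, another small MAF gene, had means of 3.37 CPM in parental cells, 1.34 in clone 15 and 2.08 in clone 37. The log2 fold change of MAFF was -1.30 in clone 15 (adjusted p 0.000563, SE 0.29) and -0.71 in clone 37 (adjusted p 0.0469, SE 0.29), and the latter call was lost in 8 of 16 alternative settings, such as without parental replicate 1 or 2 or clone 37 replicate 1 or 3 (-0.67 to -0.54, adjusted p 0.0767 to 0.183). With unstranded counts the clone 37 value was -0.075 (adjusted p 0.814), and MAFF had 25.6% of its counts on the opposite strand in parental cells, 50.2% in clone 15 and 58.9% in clone 37. CUL3, the scaffold of the ligase that KEAP1 serves, was lower by -0.22 in clone 37 (adjusted p 0.00841, SE 0.07) and by -0.34 in clone 15 (adjusted p 0.00102, SE 0.08) on the log2 scale. After removal of GC and length trends CUL3 was called in neither clone, at -0.10 (adjusted p 0.229) and -0.02 (adjusted p 0.859), and the clone 37 call was lost without clone 37 replicate 1 (-0.21, adjusted p 0.0508) or 2 (-0.18, adjusted p 0.066). BACH1, the repressor that competes with NRF2, had a log2 fold change of -0.20 in clone 15 (adjusted p 0.0395, SE 0.08) and 0.04 in clone 37 (adjusted p 0.552). Its clone 15 value turned to 0.081 after removal of GC and length trends, and the call was lost without parental replicate 2 and without any single clone 15 library (-0.21 to -0.14, adjusted p 0.06 to 0.131). BACH1 was higher in clone 37 than in clone 15 by 0.25 (adjusted p 0.00106, SE 0.06), a call lost after that removal.

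The other 4 regulators were not called in either clone against parental: NFE2L1, a relative of NRF2, the small MAF gene MAFK, RBX1, which brings the ubiquitin-loading enzyme to CUL3 ligases, and BTRC, part of a KEAP1-independent ligase. Between the clones, MAFK was higher in clone 37 by 0.27 (adjusted p 0.0304, SE 0.10), and RBX1 was lower there by a log2 difference of -0.27 (adjusted p 0.00136, SE 0.07) and NFE2L1 by -0.17 (adjusted p 0.013). The MAFK call was lost in 10 of 16 alternative settings, among them without clone 15 replicate 1 or 3 and without any single clone 37 library (0.22 to 0.30, adjusted p 0.0501 to 0.129). The calls of RBX1 and NFE2L1 were lost after removal of GC and length trends, and that of NFE2L1 also without clone 37 replicate 2 (-0.13, adjusted p 0.109).

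**Figure D4:**
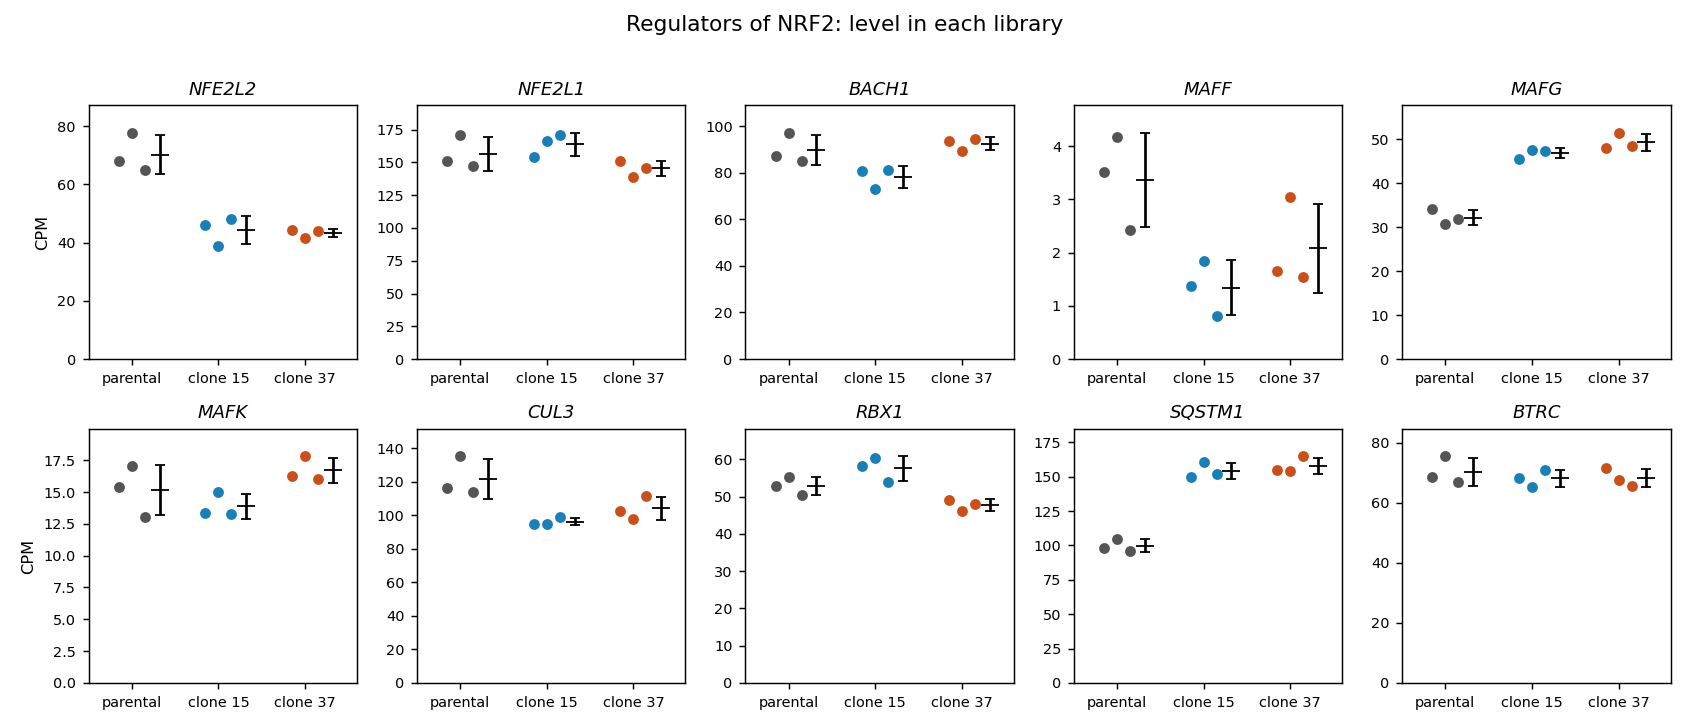
Level of each of 10 NRF2 regulators in CPM (vertical axes, each from 0) in the 3 libraries of each group; points are libraries and bars give the mean ± SD (n = 3). NFE2L2 is lower, and SQSTM1 and MAFG are higher, in every library of both clones than in any parental library.

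Together with these regulators, genes that work beside the targets form 7 lists of 63 genes, of which 62 were matched to an ID. For clone 37 against parental, 18 of 55 tested genes gave upward calls and 21 downward calls, with a median log2 fold change of -0.02. For clone 15 there were 18 upward and 16 downward calls among 58, with a median of 0.12. Of the 18, 3 were the AKR1C genes, which passed the filter on low counts through clone 15 alone and so had to be high there. Without them, 15 upward and 16 downward calls were left among 55 genes, with a median of 0.06, a choice made after the data were seen. Calls thus numbered 39 of 55 and 34 of 58, in both directions, beside 54.0% and 51.4% of all genes tested, which also split about evenly between upward and downward. The same shares of all genes stand behind the counts of each list below, and no list was tested as a set.

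The glutathione list (supply and use, 11 genes tested) held 4 upward and 3 downward calls for clone 37 against parental, and 4 of either kind for clone 15. SLC7A11, the cystine transporter that feeds glutathione synthesis, was 204, 240 and 245 CPM in parental cells, 135, 130 and 130 CPM in clone 15, and 132, 137 and 137 CPM in clone 37. It is a known NRF2 target, and it was lower in both clones without overlap, by log2 fold changes of -0.76 in clone 37 (adjusted p 4.21e-08, SE 0.07) and -0.80 in clone 15 (adjusted p 1.48e-08, SE 0.08). CHAC1, which degrades glutathione and is a target of the ATF4 stress response, fell most. Its level was 28.0, 37.8 and 30.7 CPM in parental cells, 16.8, 20.2 and 13.9 CPM in clone 15, and 3.93, 4.47 and 3.98 CPM in clone 37. The log2 fold change of CHAC1 was -2.96 in clone 37 (adjusted p 7.64e-12, SE 0.13) and -0.92 in clone 15 (adjusted p 6.49e-06, SE 0.13). GSTM3, a glutathione transferase, was lower in clone 37 by a log2 fold change of -0.88 (adjusted p 1.53e-07, SE 0.09). It was lower in clone 15 as well, at -0.72, called in all 16 alternative settings. GPX4, which removes lipid peroxides, was higher in clone 37 than in clone 15 by 0.54 (adjusted p 5.1e-09, SE 0.06).

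The thioredoxin and peroxiredoxin list (11 genes) held 2 upward and 5 downward calls for clone 37, and 3 of either kind for clone 15. TXNIP, which binds and inhibits thioredoxin, was 96.8, 106 and 82.5 CPM in parental cells, 27.1, 26.0 and 26.8 CPM in clone 15, and 11.0, 10.8 and 12.5 CPM in clone 37. The groups lay far apart, in the order parental, clone 15, clone 37. The log2 fold change of TXNIP was -3.05 in clone 37 (adjusted p 1.56e-13, SE 0.10) and -1.84 in clone 15 (adjusted p 2.86e-14, SE 0.09). PRDX4, a peroxiredoxin of the endoplasmic reticulum, rose by 0.75 in clone 37 (adjusted p 4.07e-08, SE 0.06). In clone 15 it rose by 0.26, a call lost in 4 of 16 alternative settings. TXNRD3, a relative of TXNRD1, was lower in clone 15 by a log2 fold change of -0.89 (adjusted p 1.05e-06, SE 0.12). It was lower in clone 37 as well, at -0.51, called in all 16 alternative settings. GLRX, glutaredoxin, was lower in clone 37 than in clone 15 by a log2 difference of -0.86 (adjusted p 1.07e-07, SE 0.11).

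NADPH supply (6 genes) had 3 genes higher and 2 lower in either clone. PGD, an NADPH-yielding dehydrogenase, rose by 0.50 in clone 15 (adjusted p 1.86e-05, SE 0.08). It also rose by 0.41 in clone 37, called in all 16 alternative settings. IDH1, the cytosolic isocitrate dehydrogenase, was lower by -0.56 in clone 37 (adjusted p 3.21e-06, SE 0.07) and -0.41 in clone 15 (adjusted p 0.000179, SE 0.08).

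Heme and iron handling (9 genes) held 1 upward and 6 downward calls for clone 37, and 1 upward and 3 downward for clone 15, beside the increase of HMOX1. BLVRB, which reduces biliverdin, was lower in clone 37 by a log2 fold change of -0.96 (adjusted p 3.51e-06, SE 0.12). In clone 15 it was lower by -0.37, a call lost in 4 of 16 alternative settings. SLC40A1, the iron exporter, was lower by -1.56 in clone 37 (adjusted p 8.41e-07, SE 0.17) and -0.57 in clone 15 (adjusted p 0.00543, SE 0.17), the latter call being lost on thinning to the smallest library (-0.42, adjusted p 0.0706). FTL, the ferritin light chain, was 160, 187 and 159 CPM in parental cells, 232, 249 and 240 CPM in clone 15, and 138, 128 and 132 CPM in clone 37. It moved in opposite directions in the clones, with log2 fold changes of -0.34 in clone 37 (adjusted p 0.000149) and 0.51 in clone 15 (adjusted p 1.47e-05), and the clone 15 call was lost after removal of GC and length trends (0.16, adjusted p 0.182).

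Of 12 detoxification enzymes, 6 were tested in clone 37, with 4 higher and 2 lower, and 9 in clone 15, with 5 higher and 0 lower. Without AKR1C1, AKR1C2 and AKR1C3, which passed the filter through their clone 15 counts alone, 2 of 6 were called higher in clone 15. NQO2, a relative of NQO1, rose by 0.79 in clone 37 (adjusted p 3.7e-08, SE 0.07), and PIR, an iron-binding nuclear protein, rose there by 0.85 (adjusted p 2.83e-06, SE 0.11). CBR1, a carbonyl reductase, rose by 0.69 in clone 15 (adjusted p 5.86e-07, SE 0.09). It also rose by 0.34 in clone 37, called in all 16 alternative settings. NQO2 was higher in clone 37 than in clone 15 as well, by 0.91 (adjusted p 8.33e-12, SE 0.07). Of the enzymes against superoxide and peroxide, SOD1 rose by 0.20 (adjusted p 0.0249) and CAT by 0.18 (adjusted p 0.0415) in clone 37. Both calls were fragile: SOD1 lost its call in 11 and CAT in 13 of 16 alternative settings. SOD1 lost it without parental replicate 1 or 3 or clone 37 replicate 1 or 3 (0.10 to 0.20, adjusted p 0.0843 to 0.325), and CAT without any single library (0.15 to 0.18, adjusted p 0.0741 to 0.146). In clone 15 the log2 fold changes were 0.20 for SOD1 and 0.11 for CAT, neither called. SOD1 was called there in 6 of 16 alternative settings.

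**Figure D5:**
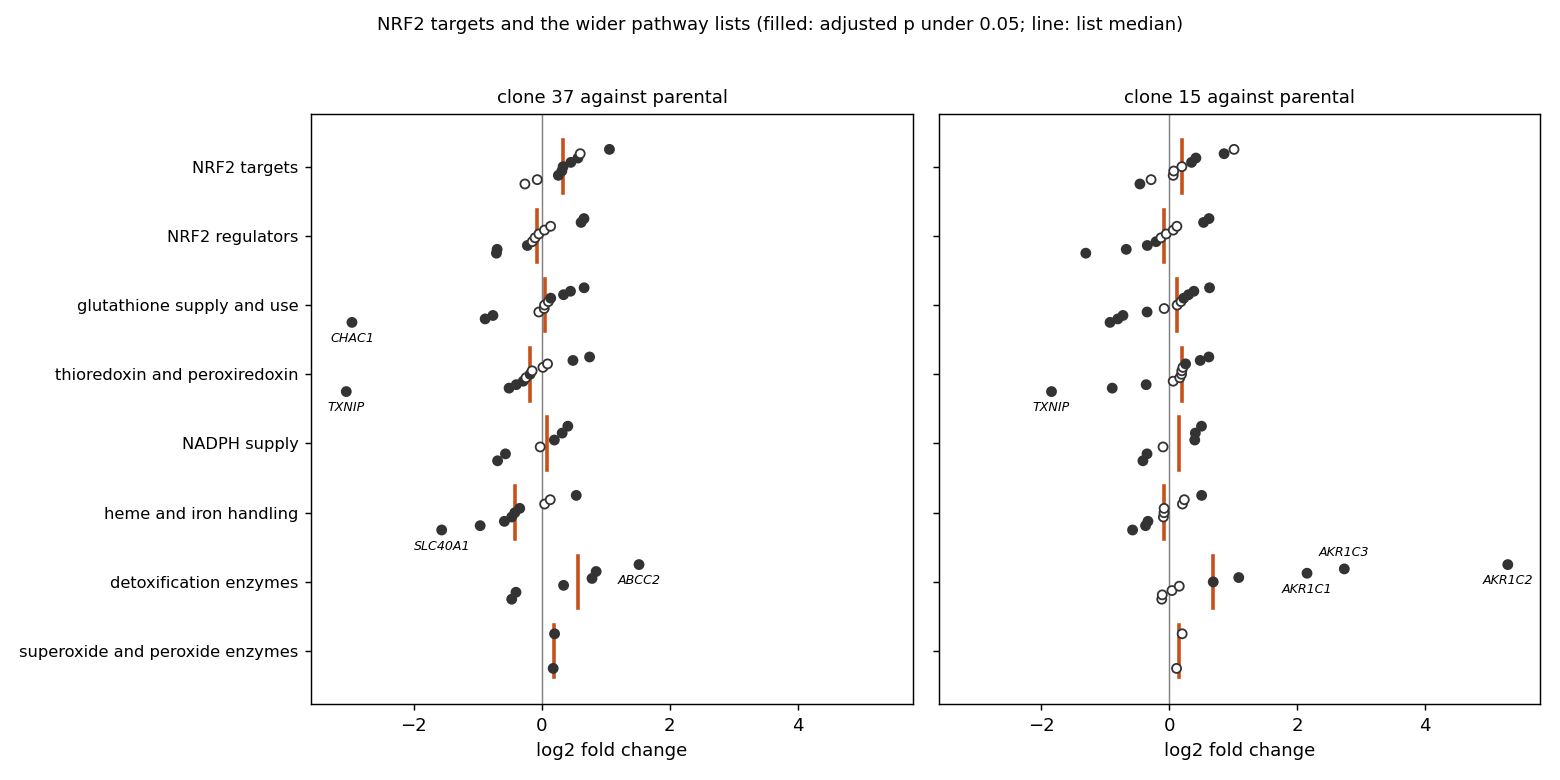
Log2 fold change (horizontal axis) of the genes of each list (rows) in clone 37 and clone 15 against parental; filled points have an adjusted p under 0.05, lines are list medians, and genes beyond 1.4 are named. Genes of every list but that of superoxide and peroxide enzymes lie on both sides of 0 in both clones, and the value of AKR1C2 rests on 1 parental count.

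The genes most like HMOX1 across the 9 libraries were NME1, HNRNPF and DHX16, with Pearson r of 0.992, 0.990 and 0.990 in log2 CPM. Of 10269 protein-coding candidates, 155 had an r above 0.95 with HMOX1. For NQO1 the nearest genes were UFC1, SUMO2 and RPL22, with r of 0.925, 0.913 and 0.900, and 0 of 10270 candidates passed 0.95. These values describe 9 libraries that share 3 groups, depth and read length.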

How the data were processed

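The authors deposited raw counts per gene for each of 9 libraries, in the layout of STAR's gene counts (1 unstranded column, then 1 for each strand). Per the submitters' processing notes, FastQC 0.11.9, STAR 2.7.10a and hg38 were used. The annotation release, trimming and filters are not given in the sources used here. Column 4 held 92.6% to 94.0% of stranded counts and was used. The 4 summary entries per file stayed out of library sizes; 4.59% to 14.0% of read pairs mapped to several places and were not counted.

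Genes were filtered with filterByExpr, scaled by TMM and tested with edgeR 4.0.16 (robust glmQLFit, glmQLFTest) in R 4.3.3, each comparison on its 6 libraries, with Benjamini-Hochberg adjustment over all tested genes and a threshold of 0.05. The SE is the size of the log2 fold change over the square root of F. CPM use TMM library sizes of all 9 libraries. The script was tested on simulated data. Symbols came from a table of gene names, and positions and lengths from GENCODE 29. Figures used matplotlib 3.10.9.

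Members and lists were chosen with earlier results of these data known. The text names all targets and regulators, from each other list the 2 called genes with the largest absolute change at a mean of at least 5 CPM per comparison, and the 3 genes most like HMOX1 and NQO1 at a mean of at least 10 CPM. Part of what this rule gave is left out of the text. Other values of these genes are given beside them; ABCC1, ME1 and the AKR1C genes come from no such rule or from a difference between the clones. Alternatives were DESeq2 1.42.0, other scalings, filters and counts, one fit of 9 libraries, a replicate block, thinning, protein-coding genes alone, GC and length trends removed, and each replicate left out.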

Additional observations from a re-analysis of the deposited data

Results flagged for a closer look

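The changes from parental differed between the clones, by the direct test of clone 37 against clone 15, for 5 of the 9 targets, a share near the 57.7% of all tested genes. On the log2 scale, clone 37 minus clone 15, the differences were -0.29 for HMOX1 (adjusted p 0.00751), 0.26 for GCLC (adjusted p 0.00139), 0.39 for GCLM (adjusted p 6.7e-05), 0.26 for TXN (adjusted p 0.000111) and 0.89 for OSGIN1 (adjusted p 0.0133). The HMOX1 call was lost with GC and length trends removed (-0.11, adjusted p 0.292) and without clone 37 replicate 1 (-0.26, adjusted p 0.0546), and the OSGIN1 call without clone 37 replicate 3 (0.65, adjusted p 0.152). Because parental cells cancel in this difference, it is the comparison of the clones already given.

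Of the pathway genes reported here, 3 were called against parental in both clones, in opposite directions. ABCC1, which exports glutathione conjugates, was 0.14 in clone 37 and -0.35 in clone 15, a difference of 0.49 (adjusted p 1.22e-08), though its clone 37 call was lost in 13 of 16 alternative settings. ME1, the cytosolic malic enzyme, was 0.32 and -0.35, a difference of 0.67 (adjusted p 4.24e-09). FTL was -0.34 and 0.51, a difference of -0.85 (adjusted p 1.7e-13). With GC and length trends removed, the clone 15 calls of ME1 (-0.15, adjusted p 0.188) and FTL (0.16, adjusted p 0.182) were lost, so opposite calls did not hold there. The longer reads of clone 15 cannot be told apart from the clone in these differences.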

How the results depend on the processing

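The numbers of genes and of targets called stayed within 1.5 times their reported values under every alternative run. Leaving out one replicate at a time and the other settings gave 5 to 6 targets in clone 37, 4 to 5 in clone 15 and 4 to 6 between the clones. HMOX1 and TXNRD1 were called against parental in all 16 alternatives for either clone, as were GCLC and TXN in clone 37 and KEAP1 in clone 15. HMOX1 ranged from 0.48 to 0.67 in clone 37 and from 0.64 to 0.99 in clone 15. Among called values, the direction turned for KEAP1 in clone 37 set against its neighbours (-0.051) and for BACH1 in clone 15 with GC and length trends removed (0.081). Values that were not called also turned, among them GCLM (0.18) and OSGIN1 (-0.06) in clone 37 against their neighbours and SLC7A11 between the clones with those trends removed (-0.17). Removing the trends also ended the clone 15 calls of PRDX1 (0.27, adjusted p 0.0644) and ME1 (-0.15, adjusted p 0.188), and the cause was not tested. Same-numbered libraries did not deviate together (correlations of -0.0643, -0.154 and -0.0642 for clone 37 with parental), so the numbers were not taken as pairs. With the replicate block, 8375 genes and 6 targets were called in clone 37, 8708 and 5 in clone 15, and 10490 and 6 between the clones, SRXN1 being called in clone 15 (1.11, adjusted p 0.0331) and KEAP1 between the clones (-0.15, adjusted p 0.0447), while BACH1 in clone 15 (adjusted p 0.0639), CAT (0.0814) and ABCC1 (0.0976) in clone 37 lost their calls. SRXN1 and OSGIN1 had at most 39 counts in any library, which limits their precision. Thinning to the smallest library changed no call of NQO1, SRXN1 or OSGIN1 where they were still tested. In clone 15 against parental, SRXN1 was tested in only 12 of the 16 alternative settings and OSGIN1 in 15.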

Other observations

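The aldo-keto reductases AKR1C1, AKR1C2 and AKR1C3, known NRF2 targets of human cells that lie side by side on chromosome 10, had most of their counts in clone 15. They were chosen after their values were seen. AKR1C1 had 34, 16 and 20 counts in clone 15, 2, 3 and 2 in parental cells, and 1, 0 and 1 in clone 37. AKR1C2 had 45, 24 and 34 counts in clone 15, 0, 1 and 0 in parental cells, and 0, 0 and 1 in clone 37. AKR1C3 had 38, 23 and 16 counts in clone 15, 2, 1 and 2 in parental cells, and 2, 0 and 1 in clone 37. The clone 15 libraries were deeper and read at a greater length, and the genes share 22.2%, 41.3% and 7.91% of their 75-base words with another gene, so the effects of read length and of the clone on these counts cannot be told apart. Because the genes were picked for this pattern, no ratio or interval is given.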
